A study of Zea mays subsp. mexicana with 6 samples.

Results

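The 109 unigenes described here had higher expression after cold and after drought than in untreated seedlings of teosinte, a wild relative of maize (Zea mays ssp. mexicana). They were chosen from 184280 assembled unigenes by 3 conditions on FPKM, the fragments of a unigene divided by its length and by the depth of the library. The mean over 6 libraries was at least 1. The group means of log2(FPKM + 1) differed by at least 2 for cold minus control and for drought minus control. All 4 stress libraries lay above both control libraries. A further 18 unigenes met the same conditions and are left out because the study names them in its text, and the 127 together are 0.328% of the 38768 unigenes that reached the mean of 1.

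The libraries were made from 13-day-old seedlings of variety 8493, with roots, stems and leaves of at least 3 seedlings pooled per sample and 2 samples per group. Control seedlings stayed at 25°C, cold seedlings were held at 4°C for 12 h, and drought seedlings stood for 3 h in a nutrient solution with 20% PEG2000, a polymer that withdraws water osmotically. Cold and drought therefore differ in agent and in length of treatment, which cannot be told apart. The samples were numbered as replicates, and p-values measure the spread between these pools of seedlings. Both treatments are compared with the same control libraries.

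Unigenes at FPKM of at least 1 numbered 42849 to 55928 per library, the highest in cold 1 and the lowest in control 2. Leaf transcripts were present in every library: 2 unigenes with a Rubisco small chain hit summed to an FPKM of 3287 to 3526 in the control, 4064 to 4492 in cold and 2215 to 2289 in drought, and 5 chlorophyll a/b-binding unigenes to 5841 to 5919, 5792 to 6907 and 3730 to 3767. The drought libraries were the lowest for both. A nicotianamine synthase unigene, an enzyme of iron uptake in grass roots, stood at 0 to 1.91 in the control, 25.8 to 27.9 in cold and 0.4 to 0.69 in drought, and was the only root transcript looked up. The part of organ shares in the results was not tested, and in pooled organs fewer cells of a type and less RNA per cell cannot be told apart.

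Plants respond to cold and to water loss through shared routes. Calcium enters the cytosol and is read by calmodulin, calmodulin-like proteins and calcium-regulated kinases, while abscisic acid (ABA) is made from carotenoids and switches on further genes. Late products include dehydrins and other protective proteins, proline and soluble sugars that hold water, polyamines, and enzymes that remodel the cell wall.

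The members went from low to medium or high expression. The median member stood at an FPKM of 3.43 and 3.37 in the controls, of 30.8 and 29.4 after cold, and of 40.0 and 33.2 after drought, against a median over all 38768 unigenes of 5.15 to 6.25. In the control 23 members had a mean under 1 and 27 a mean of at least 10, and 5 were listed at 0 in both control libraries. In the stress libraries 24 members had a mean of at least 100 and 7 a mean under 10. Together they held 0.0898% and 0.113% of the summed FPKM in the control and 0.773% to 0.999% in the stress libraries.

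**Figure D1:**
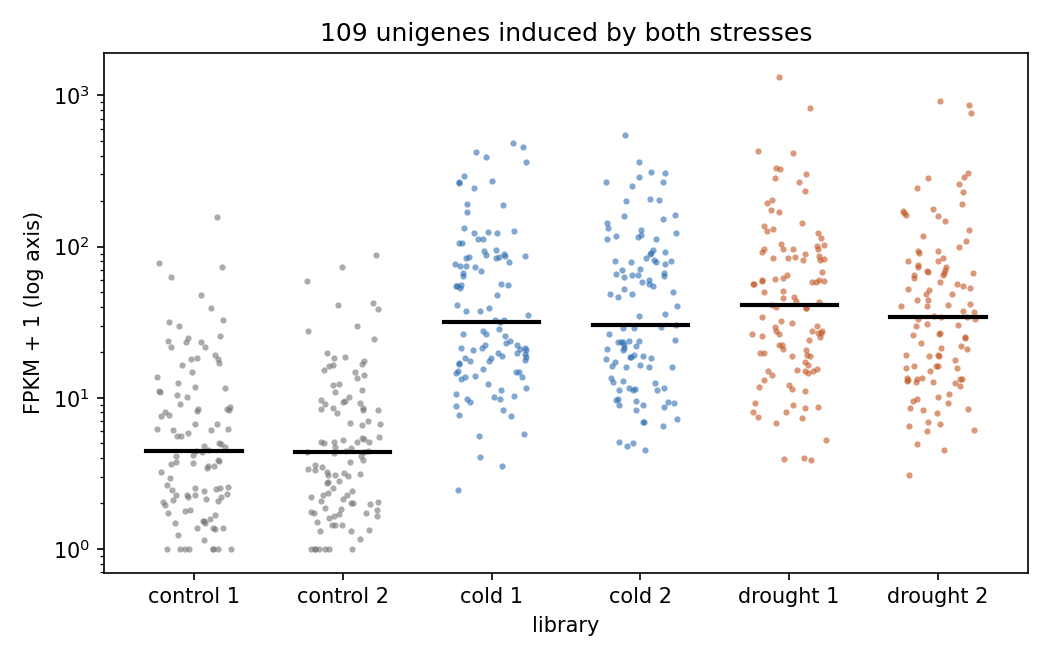
FPKM + 1 on a log axis of the 109 unigenes in each of the 6 libraries, 1 point per unigene, with the median of each library as a black bar. The medians of FPKM sit at 3.43 and 3.37 for the controls and between 29.4 and 40.0 in the stress libraries.

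Both inductions set the membership and are given as a description. Cold minus control ran from the threshold of 2 to 6.44 with a median of 2.64, and drought minus control from 2 to 5.59 with a median of 2.83, on the log2(FPKM + 1) scale, while the medians over all unigenes were −0.18 and 0.01. In the limma fit of all 6 libraries, 82 members passed the study's thresholds in cold (log2 difference of at least 2, adjusted p under 0.005) beside 2.16% of all unigenes, and 56 passed in drought beside 0.725%. Both were passed by 54 members beside 0.168%. At an adjusted p under 0.05 alone, 105 of the 109 members were higher in cold (beside 14.8%) and 103 in drought (beside 5.69%). Nothing is read from these shares, since the rule used the same contrasts.

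Just inside the fold threshold lay c59319_g7 at 2.00, c56632_g1 at 2.00 and c63332_g1 at 2.01, each the smaller of its 2 differences. Just outside lay c44576_g1 at 1.99, c64256_g3 at 1.99 and c52306_g1 at 1.98. The edge member c59319_g7, which has no description, was listed at 0 in both control libraries, at FPKM 2.55 and 3.52 in cold and at 7.54 and 2.07 in drought. c63332_g1, also undescribed, had 0.37 and 3.68 in the control, 20.4 and 5.5 in cold and 14.0 and 5.92 in drought. c56632_g1, with a late embryogenesis abundant (LEA) protein as best hit, stood higher at 20.6 and 26.6, 104 and 90.4, and 143 and 90.4. Members near the edge thus include weakly expressed unigenes whose replicates lay far apart.

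The members with the largest smaller difference were led by c61862_g1, an uncharacterized maize protein, with FPKM 5.74 and 4.06 in the control, 85.4 and 143 in cold and 99.3 and 83.1 in drought. c46223_g1, described as an embryonic abundant protein and, by its Arabidopsis hit, as a methyltransferase, went from 7.41 and 8.06 to 122 and 133 in cold and to 126 and 98.1 in drought. c61291_g2, a relative of the touch-induced calmodulin-like protein CML24, had 8.07 and 4.39, then 73.9 and 82.8, then 91.7 and 79.6. In all 3 the cold and drought libraries overlapped. Undescribed c52517_g3 had 0 and 1.2 in the control, 36.8 and 25.3 in cold and 18.6 and 15.2 in drought, without overlap. c63996_g2, uncharacterized, had 1.32 and 0.86, then 20.5 and 28.0, then 31.3 and 32.2, also without overlap. Uncharacterized c55639_g1 was far more abundant, at 23.8 and 28.7, 269 and 268, and 414 and 307, with drought above cold, and c52010_g1, a hypothetical protein, had 9.09 and 3.31, 55.0 and 61.5, and 59.0 and 61.0. None of these 7 differed between drought and cold at an adjusted p under 0.05. The other member of the 8 with the largest smaller difference, c51439_g1, did. It was higher in drought by 2.38 (adjusted p = 0.00631) and is described below.

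The difference between the levels under the 2 stresses was not fixed by the rule. It was compared as drought minus cold in the same fit, with p adjusted over all 38768 unigenes. Of the 109 members 22 were higher in drought (20.2%, beside 23.8% of all unigenes) and 23 were higher in cold (21.1%, beside 14.2%). For drought the share lay near that over all unigenes. The median drought minus cold over the members was −0.04, with a range of −4.38 to 2.69, beside a median of 0.19 over all unigenes. By the study's thresholds 5 members were higher in drought (beside 1.87%) and 4 higher in cold (beside 1.81%). The remaining 64 members did not pass an adjusted p of 0.05. Of these, 27 had a 95% interval within −1 to 1, and the intervals of the other 37 reached past a difference of 1.

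Drought lay above cold in both libraries in 37 members (33.9%, beside 43.9% of all unigenes), cold above drought in 35 (32.1%, beside 27.2%), and 37 overlapped. With 2 libraries against 2 an exact permutation test cannot go below a two-sided p of 0.333, so single members rest on the spread shared across unigenes. Median-of-ratios scaling moved the median of all unigenes from 0.19 to −0.02 and gave 16 members higher in drought and 27 higher in cold, so the share higher in drought among called members went from 48.9% to 37.2%, beside 62.6% to 45.4% among all called unigenes. With no filter on low FPKM the count higher in cold fell to 11 (beside 2.37% of all unigenes) and the count higher in drought to 15 (beside 2.77%). Without any one cold or drought library both counts fell, and so did both shares over all unigenes.

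**Figure D2:**
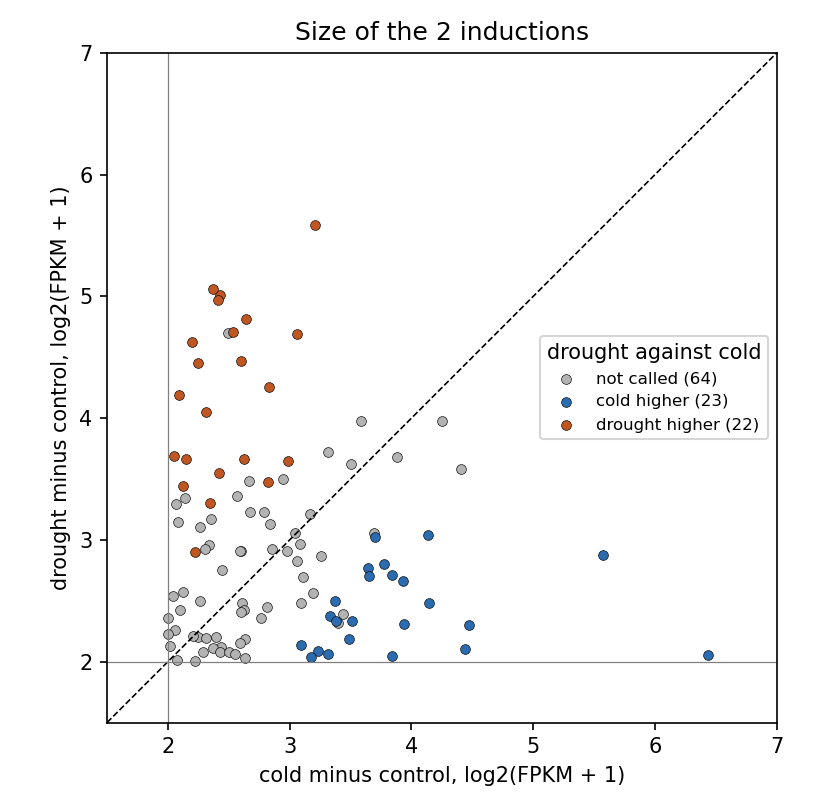
Cold minus control (x axis) against drought minus control (y axis) of log2(FPKM + 1) for the 109 unigenes, coloured by the call for drought against cold at an adjusted p under 0.05, with thin lines at the thresholds of 2 and a dashed line where both are equal. The 22 drought-higher members lie above the dashed line and the 23 cold-higher members below it, out to 6.44 in cold.

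**Figure D3:**
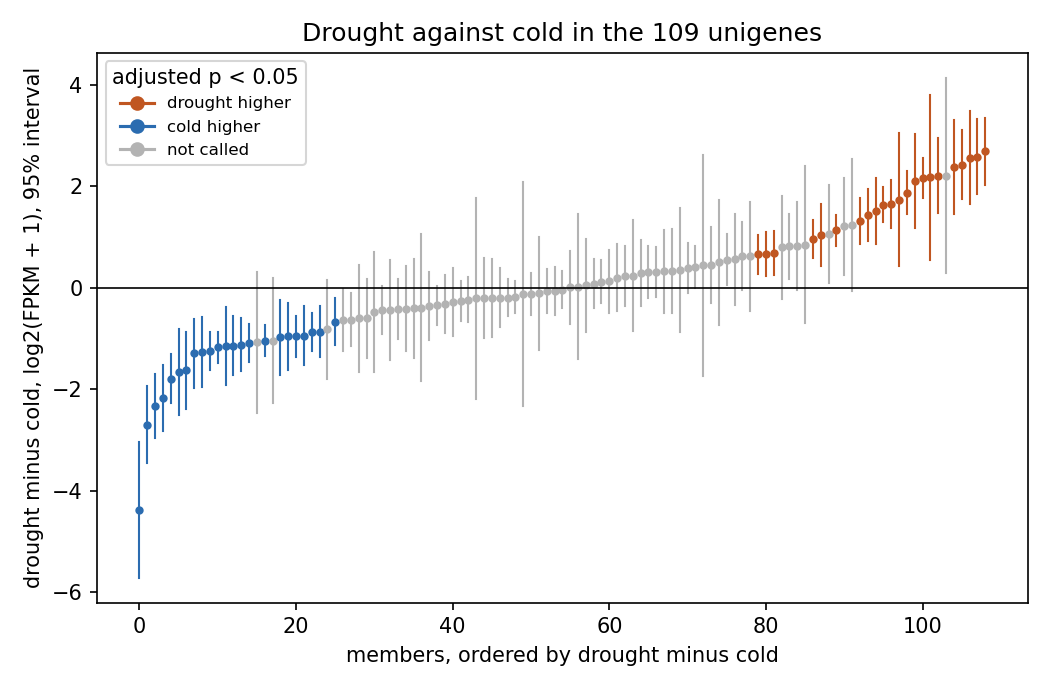
Drought minus cold of log2(FPKM + 1) with its 95% interval from limma for each of the 109 unigenes, in order of the difference. Differences run from −4.38 to 2.69, and the 64 members in grey did not pass an adjusted p of 0.05.

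Members higher in drought included enzymes that make ABA and osmolytes. c62039_g8, whose best hit is maize viviparous-14, an NCED that carries out the rate-limiting cleavage of ABA synthesis, had FPKM 0.54 and 0.5 in the control, 8.32 and 7.36 in cold, and 41.8 and 35.7 in drought. Drought exceeded cold by 2.17 (SE 0.16, adjusted p = 0.000799). It is the only member of the ABA synthesis list. The NCED1 unigene c63716_g5 met the same conditions and is left out because the study names it. That unigene had 1.58 and 1.07, 26.5 and 29.9, and 48.9 and 50.9, with a smaller drought excess of 0.80 (SE 0.16, adjusted p = 0.0120). The study traces NCED1 to maize viviparous 14 mutants, and whether c62039_g8 and c63716_g5 come from 1 gene was not tested. Proline synthesis was represented by c58431_g3 and c46626_g1, both with the gamma-glutamyl phosphate reductase gene LOC100280719 as maize hit. The first had 1.03 and 2.16, 13.8 and 10.7, and 95.8 and 72.5. The second had 0.72 and 2.08, 12.3 and 10.5, and 83.0 and 64.4. Drought exceeded cold by 2.69 (SE 0.27, adjusted p = 0.00175) and 2.58 (SE 0.30, adjusted p = 0.00261). Another unigene with this hit, c58431_g2, had 1.07 and 1.44, 7.59 and 4.91, and 55.7 and 43.6. Its cold minus control of 1.66 lay below the threshold of 2, so it is not a member. These unigenes may divide the reads of 1 gene and are not independent evidence.

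The 3 members of the list for raffinose, trehalose, proline and sugar metabolism were all higher in drought, beside 23.8% of all unigenes. Of these, c58431_g3 and c46626_g1 share a hit and may be 1 gene. The third was c63782_g3, a sucrose:sucrose 1-fructosyltransferase or invertase by its hits, which splits sucrose or transfers its fructose. It had FPKM 9.9 and 13.1 in the control, 83.0 and 66.0 in cold and 266 and 282 in drought, a drought excess of 1.87 (SE 0.17, adjusted p = 0.00141). The list, matched by words in the descriptions, does not hold c45624_g1. That member shares its hit and component with c45624_g2, which the study names as a trehalose-6-phosphate phosphatase gene. c45624_g1 was higher in cold, at 4.61 and 5.98, 84.7 and 75.9, and 57.8 and 43.0, a difference of −0.68 (SE 0.19, adjusted p = 0.0357). c55959_g2, a member of an amino acid transporter family, had 0.78 and 0.83, 10.6 and 4.1, and 30.1 and 33.9. Its excess was 2.10 (SE 0.38, adjusted p = 0.00929), and without drought 2 the adjusted p was 0.0697.

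Dehydrins and other members with a described protective role came next. This grouping is not a list. It joins members of the desiccation and redox lists with c59811_g3 and c44810_g1, which are in no list. The most abundant member in drought, c57549_g1, a dehydrin of the COR410 type, which shields membranes and proteins as cells lose water, had FPKM 46.5 and 41.4 in the control, 262 and 160 in cold, and 1330 and 918 in drought. Mean FPKM in drought was 5.32 times that in cold, and the difference was 2.42 (SE 0.28, adjusted p = 0.00254). In the list of dehydrins, LEA and other desiccation proteins 2 of 4 members were higher in drought, beside 23.8% of all unigenes. The other 2, c46223_g1 and c56632_g1, did not pass. The second to pass was c57806_g1, a senescence and dehydration-related protein, at 3.4 and 2.31, 25.5 and 20.0, and 57.1 and 39.4, a difference of 1.04 (SE 0.25, adjusted p = 0.0219). Its adjusted p was 0.0627 without cold 1, 0.115 without cold 2, 0.0993 without drought 1 and 0.0571 under median-of-ratios scaling.

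c59811_g3, whose hit is a zinc-binding EC metallothionein known from wheat embryos, had FPKM 1.57 and 1.06, 12.8 and 7.63, and 59.9 and 40.6, a difference of 2.20 (SE 0.30, adjusted p = 0.00411). c44810_g1, a small hydrophobic membrane protein like Arabidopsis RCI2A, had 72.7 and 86.5, 456 and 364, and 828 and 760. Here the difference was smaller, 0.96 (SE 0.15, adjusted p = 0.00659). c55917_g1, with the Arabidopsis protein oxidative stress 3 as hit, had 3.5 and 3.44, 22.7 and 23.2, and 55.3 and 47.7, a difference of 1.13 (SE 0.13, adjusted p = 0.00235). It belongs to the redox list, whose other 2 members, c60157_g2 and the monooxygenase-like c54272_g1, were higher in cold, beside 14.2% of all unigenes. c54272_g1 had 0.58 and 1.0, 20.4 and 33.9, and 6.38 and 9.58, a difference of −1.63 (SE 0.31, adjusted p = 0.0113), and the adjusted p was 0.0613 without cold 2 and 0.0616 without drought 1. In c59811_g3, c44810_g1 and c55917_g1 every drought library lay above every cold library.

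Regulators higher in drought were few. c44726_g1, a zinc finger DNA-binding protein, had FPKM 0.69 and 0.45 in the control, 4.56 and 11.5 in cold and 48.9 and 47.2 in drought, a difference of 2.56 (SE 0.37, adjusted p = 0.00501). c51930_g3, with the maize DRE-binding protein 4 as hit, a family that binds the dehydration-responsive element of stress promoters, had 0.23 and 0.6, 7.8 and 10.3, and 25.8 and 26.0. Its difference was 1.43 (SE 0.21, adjusted p = 0.00523). c60305_g1, an ethylene-responsive transcription factor 4, was more abundant at 22.7 and 18.9, 87.7 and 114, and 175 and 148, with a difference of 0.68 (SE 0.17, adjusted p = 0.0283). Its adjusted p was 0.127 under median-of-ratios scaling, 0.119 without cold 1, 0.129 without drought 1 and 0.0732 without drought 2. Undescribed c51439_g1 had the largest drought induction, at 1.08 and 0, 12.6 and 12.0, and 84.3 and 55.5. Drought exceeded cold by 2.38 (SE 0.38, adjusted p = 0.00631), but with a pseudocount of 0.1 the adjusted p was 0.125.

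The largest difference among the members went the other way. c59456_g1, with a putative MYB domain protein as hit (MYB proteins are transcription factors), had FPKM 0 and 2.25 in the control, 188 and 128 in cold, and 5.76 and 7.32 in drought. Mean FPKM in cold was 24.2 times that in drought, and drought minus cold was −4.38 (SE 0.54, adjusted p = 0.00313). Its drought minus control of 2.06 was close to the threshold for membership and had an adjusted p of 0.0818, so a drought response of this unigene rests on the rule alone. The bHLH transcription factor c40481_g1, related to Arabidopsis bHLH35, had 2.83 and 4.11, 111 and 53.9, and 25.7 and 21.9. Drought minus cold was −1.66 (SE 0.35, adjusted p = 0.0149), and the adjusted p was 0.0609 without drought 1 and 0.0945 without drought 2. The other bHLH member, c50853_g1, had 2.54 and 1.41, 13.0 and 10.6, and 21.2 and 12.6, with a difference of 0.45 and a 95% interval of −0.31 to 1.20.

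Among cold-higher members were enzymes of the cell wall and of polyamine synthesis. c51860_g1 and c51860_g2, 2 unigenes of 1 assembly component, both matched xyloglucan endotransglucosylase/hydrolase 15, which cuts and rejoins xyloglucan chains of the wall. The first had FPKM 1.27 and 0.74 in the control, 126 and 70.0 in cold and 15.4 and 12.0 in drought. The second had 1.12 and 1.14, 54.2 and 39.4, and 12.1 and 7.37. Drought minus cold was −2.70 (SE 0.31, adjusted p = 0.00252) and −2.17 (SE 0.26, adjusted p = 0.00300). They may be copies or fragments of one gene.

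S-adenosylmethionine decarboxylase, which supplies the aminopropyl groups of spermidine and spermine, was the hit of 2 members from separate components. c46925_g1 had FPKM 30.5 and 23.3, 421 and 286, and 202 and 159. c52972_g1 had 17.4 and 15.8, 242 and 198, and 131 and 108. The differences were alike in size, −0.95 (SE 0.24, adjusted p = 0.0258) and −0.88 (SE 0.15, adjusted p = 0.00815), and both were expressed strongly in either stress. For c46925_g1 the adjusted p was 0.114 without cold 1, 0.0597 without drought 1 and 0.141 without drought 2, and for c52972_g1 it was 0.0526 without drought 2.

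Ubiquitin ligases attach ubiquitin to proteins that are to be degraded. Both members of that list were higher in cold, beside 14.2% of all unigenes. c63582_g1, a RING/U-box protein, had FPKM 7.05 and 8.23, 92.0 and 78.4, and 38.3 and 32.1, a difference of −1.25 (SE 0.15, adjusted p = 0.00289). c49918_g1, a NEP1-interacting RING protein, had 5.25 and 2.85, 54.7 and 79.8, and 38.1 and 28.8, a difference of −0.97 (SE 0.30, adjusted p = 0.0484). The second call lay at the threshold, and its adjusted p was between 0.0792 and 0.220 without any one of the cold or drought libraries and between 0.0663 and 0.180 with a pseudocount of 0.1, either other filter, no trend or the replicate block. c60157_g2, an NAD(P)H dehydrogenase B2, an alternative dehydrogenase of plant mitochondria, had 5.21 and 5.64, 62.6 and 69.4, and 33.2 and 29.6, a difference of −1.05 (SE 0.12, adjusted p = 0.00278).

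Several of the largest cold excesses belonged to uncharacterized maize proteins. c31413_g1, with LOC100278972 as hit, had FPKM 17.2 and 11.3 in the control, 391 and 267 in cold and 57.9 and 69.1 in drought, a difference of −2.34 (SE 0.26, adjusted p = 0.00228). A second unigene with the same hit, c45688_g1, was much lower at 0.52 and 0.45, 27.5 and 16.95, and 10.0 and 6.97. Its difference was −1.27 (SE 0.28, adjusted p = 0.0181), with an adjusted p of 0.0879 without cold 1 and 0.102 without drought 2. c63756_g2, with LOC100276436 as hit, had 20.7 and 14.2, 266 and 252, and 82.0 and 66.5, a difference of −1.80 (SE 0.20, adjusted p = 0.00226).

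**Figure D4:**
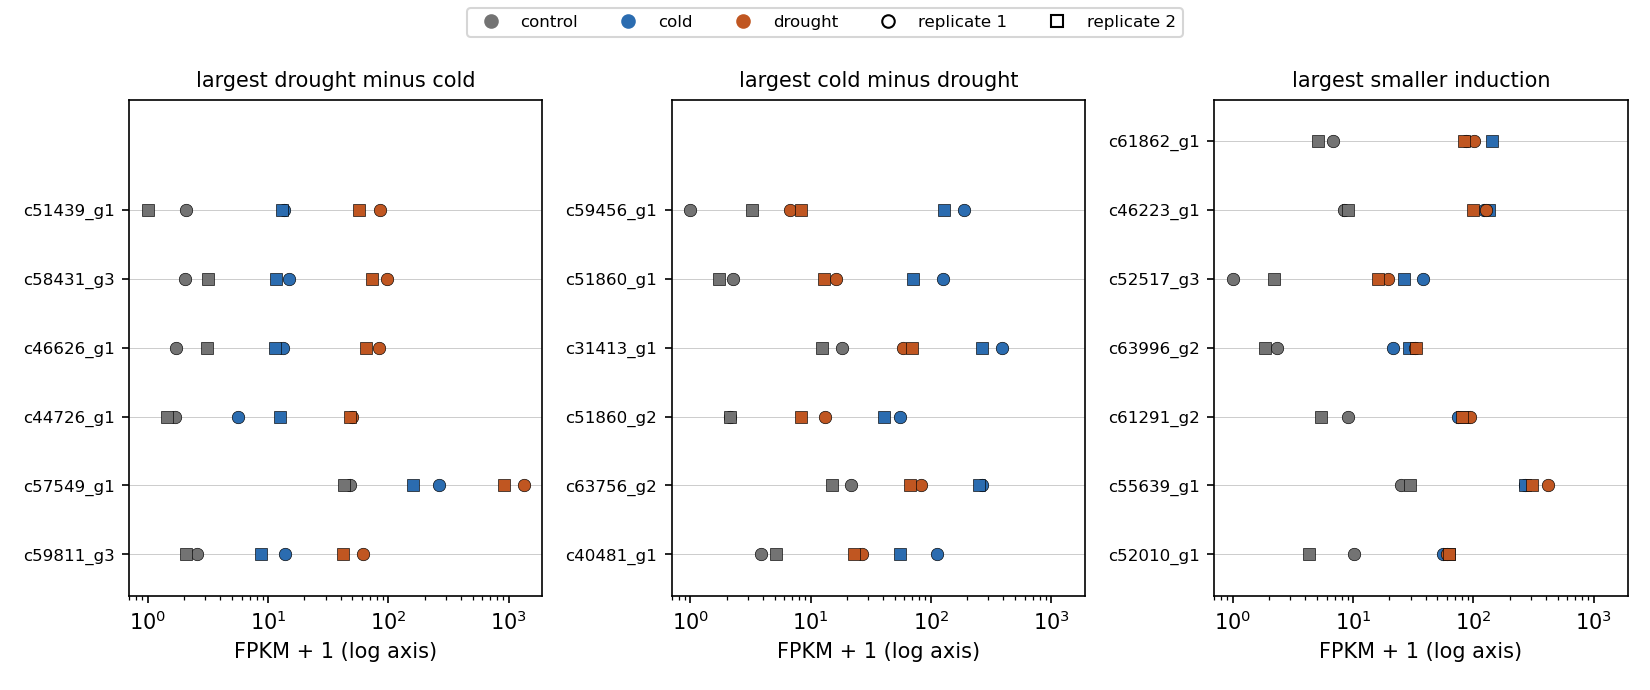
FPKM + 1 on a log axis in each library (circles replicate 1, squares replicate 2) for the 6 members with the largest drought minus cold and the 6 with the largest cold minus drought among called members whose cold and drought libraries do not overlap, and the members with the largest smaller induction that are in neither set. In the left panel drought lies above cold without overlap, in the middle panel cold above drought, and in the right panel the stress libraries lie close together and most overlap.

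The calcium list was the largest role list among the members, and 6 of its 7 members did not differ between drought and cold at an adjusted p under 0.05. Of all 109 members 64 did not pass either, and over all unigenes 23.8% were called higher in drought and 14.2% in cold. c47706_g1, a relative of calmodulin-like protein CML43, was the most abundant, with FPKM 62.4 and 37.6 in the control, 292 and 308 in cold and 283 and 241 in drought. Its drought minus cold was −0.20, with an interval of −0.78 to 0.39. For c61291_g2 the difference was 0.13, with an interval of −0.49 to 0.74. The calmodulin unigenes c60233_g4 and c60233_g5, from 1 component and possibly copies that share reads, had differences of −0.26 and −0.32. c55361_g1, an EF-hand protein like CCD1, had FPKM 13.9 and 8.69, 55.9 and 63.6, and 113 and 74.9. Drought lay above cold without overlap there, with a difference of 0.62, an interval of −0.05 to 1.29 and an adjusted p of 0.124. A failed test does not show that these sensors respond alike, and the intervals bound how far they may differ.

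Calcium ATPase c59334_g1, a pump that returns calcium across the plasma membrane, was weakly expressed at FPKM 0.95 and 0.75, 7.29 and 15.6, and 23.0 and 16.8. Its difference was 0.82, with an interval of −0.05 to 1.68, and without cold 2 it passed at an adjusted p of 0.0383. The seventh member of the list, the calmodulin-binding family protein c45574_g1, was higher in cold, at 10.6 and 5.68, 85.1 and 112, and 39.0 and 39.2. The difference was −1.30 (SE 0.28, adjusted p = 0.0158), and the adjusted p was between 0.0540 and 0.0929 without any one of the cold or drought libraries.

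Protein kinases had 3 members. c61002_g3, whose Arabidopsis hit CIPK23 is a kinase held by calcium-binding CBL proteins and acts in potassium and nitrate uptake there, was higher in cold. It had FPKM 1.22 and 0.65, 16.6 and 16.1, and 8.21 and 5.71, a difference of −1.14 (SE 0.24, adjusted p = 0.0150), and the adjusted p was 0.0830 without cold 1, 0.0759 without cold 2 and 0.0795 without drought 2. c57367_g5, related to mitogen-activated protein kinase kinase kinase 17, part of an ABA-responsive cascade in Arabidopsis, had 2.53 and 2.47, 18.7 and 10.2, and 42.5 and 21.0. Its difference was 1.06, with an interval of 0.10 to 2.03 and an adjusted p of 0.0806. c57573_g1, a serine/threonine kinase of the NAK type, had 3.8 and 2.74, 18.5 and 15, and 24.5 and 15.1, with a difference of 0.20 and an interval of −0.46 to 0.85.

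For 4 members of other roles drought minus cold did not pass, which does not show that the responses were alike. c53423_g1, a protein phosphatase 2C, had FPKM 3.19 and 3.09, 21.9 and 19.7, and 18.1 and 18.1, a difference of −0.19 with an interval of −0.51 to 0.13, and under median-of-ratios scaling the difference of −0.42 passed at an adjusted p of 0.0471. c61276_g1, a TIFY 10 protein, one of the JAZ repressors of jasmonate signalling, had 7.26 and 12.6, 105 and 77.6, and 87.8 and 51.9. Its difference was −0.41 with an interval of −1.25 to 0.43. The tonoplast aquaporin TIP4 unigene c56624_g1, a vacuolar water channel, had 10.0 and 13.8, 132 and 203, and 94.7 and 116. Cold lay above drought in all libraries, with a difference of −0.64, an interval of −1.26 to −0.02 and an adjusted p of 0.0958. Under median-of-ratios scaling it passed, with an adjusted p of 0.0423. Phytoene synthase c62048_g2, the first committed enzyme of carotenoid synthesis and so upstream of ABA, had 3.43 and 1.76, 26.8 and 14.9, and 26.8 and 23.9, with a difference of 0.32 and an interval of −0.50 to 1.14.

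By mean FPKM over the 4 stress libraries the 6 leading members were the dehydrin c57549_g1, the RCI2A-like c44810_g1, c49479_g1, c63836_g2, c55639_g1 and the CML43-like c47706_g1. Uncharacterized c49479_g1 had FPKM 156 and 72.6 in the control, 486 and 544 in cold and 428 and 860 in drought, a spread within the control and drought pairs that the interval of its drought minus cold difference reflects, −0.86 to 1.34. c63836_g2, a methionine gamma-lyase by its Arabidopsis hit, an enzyme that degrades methionine, had 76.4 and 58.4, 364 and 311, and 331 and 289, with a difference of −0.12 and an interval of −0.53 to 0.29.

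A description was found for 76 members, 32 of them in at least 1 of the 20 role lists, and 33 had none, 13 because no hit was given and 20 because the annotation used here does not list them. No member fell in the lists for NAC, WRKY or bZIP and homeodomain transcription factors, lipid and wax metabolism, or transposons. The bZIP unigene c59299_g1 and the WRKY unigene c56800_g2 met the conditions of membership and are left out because the study names them. Their cold minus control was 3.18 and 3.02, and their drought minus control 3.47 and 3.11. In the supplementary table of cold-induced unigenes, which is held here only in part, 15 of 88 listed members had no maize hit (17.05%), beside 496 of the 1278 other unigenes (38.8%), and the rows not held could move both shares. Undescribed members were weaker, with a median stress FPKM of 15.9 against 53.1 for the described ones. Drought-higher and cold-higher calls numbered 17 and 20 among the 76 described members and 5 and 3 among the 33 undescribed. Over all unigenes 23.8% and 14.2% were called. The contrast between described and undescribed members was not tested.

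The 2 control libraries disagreed in more members than the stress replicates did. The rule used these same values, so the counts are a description and nothing is read from them. They were at least 1 apart on the log2(FPKM + 1) scale in 21 members (19.3%, beside 6.91% of all unigenes), whereas cold replicates were in 8 (7.34%, beside 7.46%) and drought replicates in 7 (6.42%, beside 7.40%). Control 1 was the higher in 13 of the 21 and control 2 in 8. No description was found for 10 of the 13, 5 of the 8 and 18 of the 88 members whose controls lay within 1. The plainest case is c48008_g1, undescribed, with 38.4 and 4.35 in the control, 83.9 and 118 in cold, and 103 and 177 in drought. Neither of its inductions passed in limma, at an adjusted p of 0.0539 in cold and 0.0914 in drought. Undescribed c63361_g2 had 22.5 and 3.7, 38.0 and 88.7, and 323 and 229. Its drought minus cold of 2.21 had an adjusted p of 0.0717, and 0.0254 or 0.0248 without control 1 or control 2. Among the 13, cold 2 lay above cold 1 in 10 and drought 2 above drought 1 in 6.

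The 109 members came from 101 assembly components, and 8 components held 2 members each, such as the wall enzymes of c51860 and the calmodulins of c60233. In none of the 8 pairs was one unigene called higher in drought and the other higher in cold. The 101 components held 154 other unigenes, including 99 with a mean FPKM of at least 1, of which 38 were higher and 10 lower in cold than in the control (14.8% and 22.4% of all unigenes) and 24 were higher and 1 lower in drought (5.69% and 2.83%). Unigenes of a component share sequence, so these are not separate genes with certainty.

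The study's own stress unigenes were followed in the same fit. Of the 76 it names by identifier, 72 were tested. In cold 43 were higher and 20 lower than in the control, beside 14.8% and 22.4% of all unigenes. In drought 48 were higher and 6 lower than in the control, beside 5.69% and 2.83%. Between the stresses 29 were higher and 18 lower in drought than in cold, beside 23.8% and 14.2%. Among the 18 that met the conditions of membership, 2 were higher in drought than in cold (beside 23.8% of all unigenes). A further 4 were higher in cold (beside 14.2%) and the rest did not pass. The study chose them on these libraries, so they are not independent evidence.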

How the data were processed

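RNA-seq of 6 libraries was used. The authors trimmed and merged the reads, assembled them with Trinity, mapped each sample with Bowtie 1.1.1, estimated the reads per unigene with RSEM and deposited FPKM values with 2 decimals and no scaling between libraries. The deposited table gives no read counts, so no count test was run. Read numbers per library are stated in the study's supplement and were not used here.

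From the FPKM, log2(FPKM + 1) of the 38768 unigenes with a mean of at least 1 was fitted in limma 3.58.1 (R 4.3.3), with 1 fit, 3 groups, a mean-variance trend and Benjamini-Hochberg adjustment in each comparison. The scale understates changes of low unigenes. Residual degrees of freedom were 3 and prior ones 2.86. A call is an adjusted p under 0.05. Tested on simulated data for drought minus cold over 38768 unigenes, 26 of 100 unigenes changed by 1 and 81 of 100 changed by 2 were called, 0 with the wrong sign. Only these unigenes were changed, and none was picked among weakly expressed ones. In the data 9246 and 5517 unigenes were called higher and lower, so the simulated rates do not give the power there.

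Members, role lists and tests were chosen with earlier results of these data known. Named members are the 8 with the largest smaller difference from the control, the 6 at each end of drought minus cold among calls without overlap, the 6 most abundant under stress, 2 per role list of at least 2 members, and 3 at each side of the threshold. c62039_g8, c51930_g3, c53423_g1, c60305_g1, c61276_g1, c45574_g1, c46925_g1, c52972_g1, c45688_g1, c61002_g3, c62048_g2, c60233_g4, c60233_g5, c55361_g1, c54272_g1, c48008_g1 and c63361_g2 were chosen after their values were seen. c45624_g1 was also chosen after its values were seen and is not among the 55 named members followed across settings. Descriptions are best hits from supplementary tables held here in part. Their fold changes and p-values, which are the authors' own comparisons, were not used. Of the members, 36 matched a RefSeq maize gene (assembly Zm-B73-REFERENCE-NAM-5.0) by number. Promoter motifs and sequences were not analysed here. Alternatives were a pseudocount of 0.1, other filters, median-of-ratios and quantile scaling, a replicate block, no trend, a separate fit of the 4 stress libraries and each library left out. Tables and plots used Python 3.11.15, numpy 2.4.6, pandas 2.3.3 and matplotlib 3.10.9.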

Additional observations from a re-analysis of the deposited data

Results flagged for a closer look

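These members differed between the stresses, with an absolute drought minus cold of at least 2 on the log2(FPKM + 1) scale and an adjusted p under 0.005 in limma, all without overlap of the cold and drought libraries. Drought was the higher for the proline synthesis unigenes c58431_g3 (2.69) and c46626_g1 (2.58), the dehydrin c57549_g1 (2.42), the metallothionein c59811_g3 (2.20) and the NCED c62039_g8 (2.17). Cold was the higher for the MYB unigene c59456_g1 (−4.38, with drought minus control at an adjusted p of 0.0818), the wall enzymes c51860_g1 (−2.70) and c51860_g2 (−2.17), and c31413_g1 (−2.34). Over all unigenes 1.87% passed these thresholds higher in drought and 1.81% higher in cold. Groups of 2 libraries are too small for a test of single outlying samples.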

How the results depend on the processing

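The rule gave 513 members with a pseudocount of 0.1 and 830 with a log2 difference of at least 1, all 109 among them. It gave 122 under median-of-ratios scaling, 105 of them shared, and 104 to 140 without any one library. Members higher in drought than cold numbered 15 to 25 without any one library and 5 by the thresholds of 2 and 0.005, and those higher in cold 13 to 22 and 4, or 11 with no filter. The median drought minus cold was −0.28 under median-of-ratios scaling and −0.10 to 0.05 without any one library. In all these fits 0 called members were called in the other direction.

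Among the 55 named members only differences that did not pass the test turned direction. Under median-of-ratios scaling they were c61291_g2 (−0.11), c52010_g1 (−0.19), c49479_g1 (−0.0036), c57573_g1 (−0.031) and c56632_g1 (−0.014), and under quantile normalization c52010_g1 (−0.034). Without 1 library the range was −0.65 to 0.089 for c61862_g1, −0.034 to 0.12 for c52010_g1, −0.26 to 0.74 for c49479_g1, −0.13 to 0.53 for c57573_g1, −0.38 to 1.09 for c59319_g7, −0.10 to 0.55 for c56632_g1, −1.07 to 0.65 for c63332_g1 and −0.078 to 0.72 for c62048_g2. With no filter, which tests 176534 unigenes, 10 named members lost their call, with adjusted p from 0.0585 to 0.180. The causes were not tested.

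The labels number the replicates in each group, but their deviations over all tested unigenes did not go together (r = −0.03, −0.01 and 0.04). No broad pairing by number was thus seen, and a pairing that touches few unigenes was not tested. With the replicate block 22 members were higher in drought and 21 higher in cold, 19 and 20 of them shared with the fit without it. At 2 decimals and 2 libraries a group, values near 0 and differences of 1 or less are poorly resolved. Motifs in promoters were not run.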
